A study of Drosophila melanogaster with 2 samples.

Results

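The 7 genes ush, CG11050, CG32772, cno, Lk6, sbb and CG9663 hold the intronic peaks of highest value in a chromatin immunoprecipitation experiment on the mitochondrial transcription factor TFAM in fly embryos. They were chosen by that value, the score that the authors' peak caller gave each peak. The values were those in the list of peaks kept after a threshold on reproducibility, the irreproducible discovery rate. That list holds 1290 peaks on the dm6 build, of which 1268 lie on the nuclear chromosome arms and 464 of these have their summit in an intron, more than 500 bp from any annotated start site. The 7 peaks are therefore selected on their values, which are given as a description with no test. Among the 464 intronic peaks they held the ranks 1 to 6 and 8.

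The embryos came from a transgenic line, TFAM-GFP, that stably expresses TFAM with GFP at its C-terminus, and were of mixed sex and aged 0 to 16 h. Per the sample descriptions the antibody recognised GFP, whereas the labels' antibody entry names TFAM. There was 1 group with 2 biological replicates, numbered 3 and 4, of chromatin sonicated to 200 to 800 bp. All tissues of the whole embryo were pooled, both replicates carried the tagged protein, and no untagged embryo was analysed here, so signal from the tag or the antibody cannot be told apart from signal from TFAM. The read depth behind the peaks is unknown, because the files used give scores and no counts.

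TFAM is a protein with 2 HMG boxes that bends DNA, coats the mitochondrial genome and is needed to start its transcription. Nuclear sites are not its textbook targets. Among the 7 genes, ush (u-shaped) encodes a zinc finger cofactor of the FOG family that binds GATA factors, and sbb (scribbler, also brakeless) encodes a nuclear corepressor. The protein of cno (canoe, the fly afadin) ties the actin network to adherens junctions and is bound by the small GTPase Rap1. Lk6 is a kinase of the type that phosphorylates the cap-binding protein eIF4E, and CG9663 belongs to the ABC transporters of the White family. For CG11050 and CG32772 no role is given here.

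The sequence from 100 bp before to 100 bp after the summit is shown for 6 of the 7 peaks, because these windows are the sites the description turns on and were not used to choose them. Each is the plus strand of RefSeq's Release 6 (dm6) assembly, 5′ to 3′, and capitals mark every match on either strand to the motifs searched, which are spelled out and described further on. The windows are chr2L:480959-481159 for ush, chr2L:6612616-6612816 for CG11050, chrX:4910267-4910467 for CG32772, chr3R:5215429-5215629 for cno, chr3R:11760931-11761131 for Lk6 and chr2L:3302096-3302296 for CG9663.
ush: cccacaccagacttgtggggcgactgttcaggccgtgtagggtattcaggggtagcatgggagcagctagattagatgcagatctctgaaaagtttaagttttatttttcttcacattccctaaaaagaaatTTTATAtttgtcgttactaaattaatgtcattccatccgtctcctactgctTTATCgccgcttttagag
CG11050: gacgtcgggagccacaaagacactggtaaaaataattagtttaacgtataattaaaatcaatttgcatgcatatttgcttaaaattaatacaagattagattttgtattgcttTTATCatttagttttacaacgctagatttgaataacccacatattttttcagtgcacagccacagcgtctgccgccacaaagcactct
CG32772: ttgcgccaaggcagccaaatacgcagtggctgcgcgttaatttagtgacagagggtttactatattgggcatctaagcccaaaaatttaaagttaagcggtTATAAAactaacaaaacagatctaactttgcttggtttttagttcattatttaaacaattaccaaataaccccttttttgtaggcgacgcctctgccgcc
cno: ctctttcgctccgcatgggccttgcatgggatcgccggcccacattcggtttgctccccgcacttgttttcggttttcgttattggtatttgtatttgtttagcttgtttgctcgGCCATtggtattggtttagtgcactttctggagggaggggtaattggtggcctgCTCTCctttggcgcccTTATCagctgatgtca
Lk6: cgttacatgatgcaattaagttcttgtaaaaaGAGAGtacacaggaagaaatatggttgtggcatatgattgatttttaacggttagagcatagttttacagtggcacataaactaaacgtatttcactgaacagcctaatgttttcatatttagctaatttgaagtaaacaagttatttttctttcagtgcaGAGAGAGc
CG9663: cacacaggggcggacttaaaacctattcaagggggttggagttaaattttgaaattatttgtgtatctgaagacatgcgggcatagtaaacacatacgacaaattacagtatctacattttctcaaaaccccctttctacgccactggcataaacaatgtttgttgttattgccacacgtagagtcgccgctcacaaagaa

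The 7 peaks lay above the median of the other intronic peaks in every list, though not above each of those peaks. Values in the thresholded list ran from 447 for CG9663 to 693 for ush, with a median of 516, whereas the other 457 intronic peaks had a median of 122 and the lowest intronic peak had 92.5. Just outside the listed genes lay the peak of Lrch with 410. One peak of another gene, Trl, which encodes the GAGA factor, with 464 (replicate 3, 269 and replicate 4, 194), ranked seventh, above CG9663, and is not among the listed genes. The highest nuclear peak of any class had 837, and the 7 peaks held the ranks 4, 6, 10, 14, 15, 20 and 24 among all nuclear peaks.

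Every thresholded nuclear peak was found in the pooled list with the same value, so these are 1 measurement. The pooled values of the 7 peaks were also close to the sum of the values in the replicate lists, with a ratio of 0.993 to 1.00 (median 1.00), and the same ratio had a median of 1.01 over 438 of the other intronic peaks. The pooled value is thus not a separate measurement beside the replicates. Scales differ between the lists, so each peak was also set against the median of the other intronic peaks in the same list, which was 59.3 in replicate 3 and 65.9 in replicate 4. On that ratio the 7 peaks had a median of 4.24 in the thresholded list (3.67 to 5.70), 4.36 in replicate 3 (2.71 to 5.70) and 4.65 in replicate 4 (3.69 to 5.36). In replicate 3 the highest other intronic peak, that of Trl, was above Lk6, CG9663, cno and sbb, and in all 5 other intronic peaks were above cno and 8 above sbb. In replicate 4 the highest other intronic peak had 237, below all 7.

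**Figure D1:**
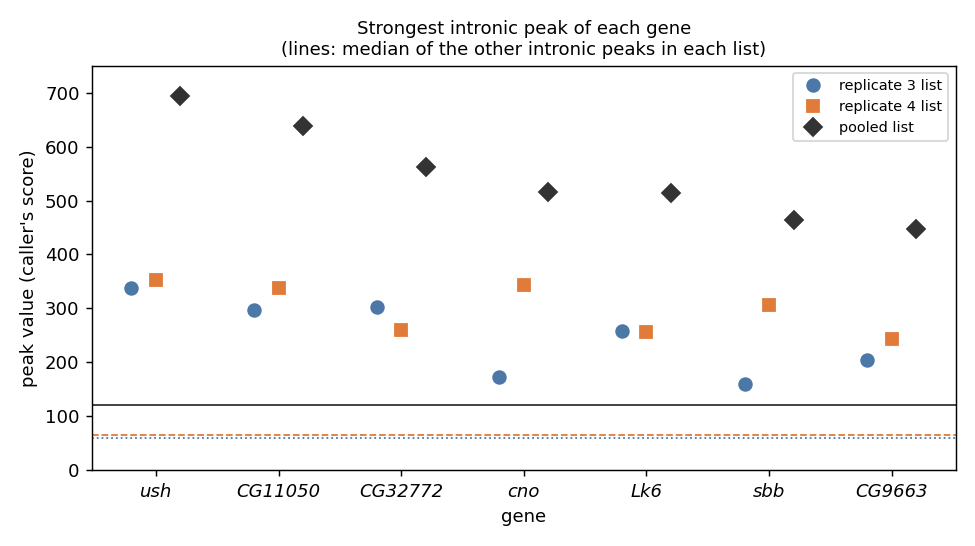
Value of the strongest intronic peak of each gene in the replicate 3, replicate 4 and pooled lists (caller's score, points), with lines at the median of the other intronic peaks in each list. All points lie above the line of their list, and replicate 4 was far above replicate 3 at cno (343 against 172) and sbb (307 against 161).

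All 7 peaks had a summit in both replicate lists within 100 bp, as did 95.9% of the 464 intronic peaks, so having a counterpart does not set them apart. The replicate summits were 0 to 15 bp from the summit of the pooled call and 4 to 14 bp from each other. All 7 regions had the same q-value within a list, 0.0084 in the thresholded list, 0.0064 in replicate 3 and 0.013 in replicate 4, so q-values do not order them. The ratio of the replicate 4 to the replicate 3 value had a median of 1.14 over 445 intronic peaks (quartiles 0.891 and 1.44). Of the 7, 5 lay within that quartile range or just below it: ush had 1.05, CG11050 1.14, Lk6 0.993, CG9663 1.20 and CG32772 0.864. The peaks of cno and sbb had 1.99 and 1.91, and only 27 and 32 of the 445 peaks had ratios as high as theirs.

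**Figure D2:**
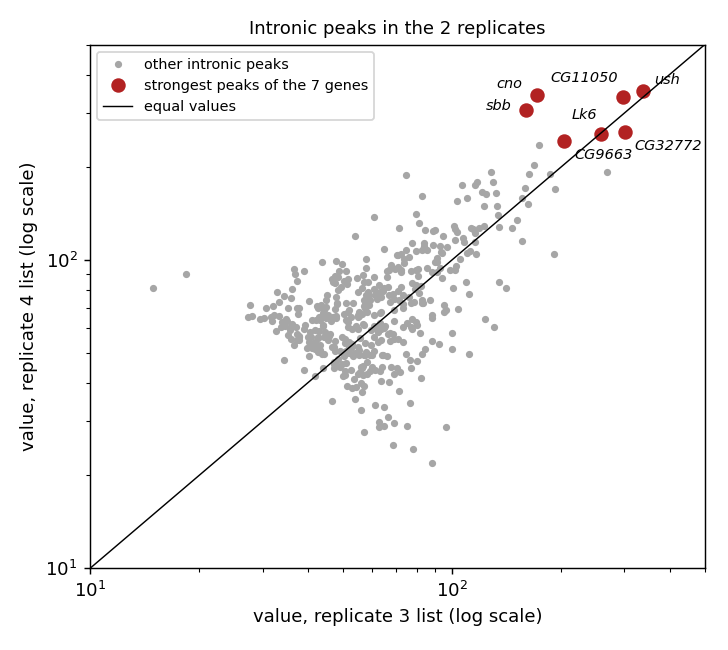
Value in replicate 3 (x) against replicate 4 (y), both on log scales, for 445 intronic peaks with a summit in both lists; red points are the 7 genes and the line marks equal values. The 7 lie at the upper right, with cno (172 and 343) and sbb (161 and 307) above the line.

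The strongest peak lay in the gene for ush, the GATA cofactor (FBgn0003963, 64.341 kb on the plus strand of 2L, 476220 to 540560). Its value was 338 in replicate 3, 353 in replicate 4 and 693 in the thresholded list, with ranks 3, 5 and 4 among nuclear regions of those lists. The 282 bp region, 480943 to 481224, had its summit at 481059. The summit lies in intron 1 of the transcripts ush-RD and ush-RE, 4728 bp from the 5′ splice site and before their start codon. That intron is 49060 bp long in ush-RD and 13185 bp in ush-RE. The closest start site is not that of ush but that of cbt, the gene of the zinc finger factor cabut, which is transcribed from the other strand, and the summit lies 1371 bp upstream of it. Its own gene's start is 4839 bp away.

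The ush gene body held 6 further thresholded regions, more than any other of the 7 genes. The strongest of these, 479840 to 480229, had 215 (replicate 3, 104 and replicate 4, 112). Its summit is 1024 bp from the strongest peak and 347 bp upstream of the cbt start, so it was classed as a promoter region of cbt. The region 485689 to 486078 had 149 in the thresholded list (57.0 and 89.2 in replicates 3 and 4). The remaining 4 lay 29.597 to 41.062 kb from the strongest summit and upstream of later starts of ush. They were 510461 to 510850 with 134 (47.6 and 88.8), 516040 to 516429 with 135 (77.8 and 59.7), 520546 to 520935 with 96.1 (35.0 and 63.5) and 521926 to 522315 with 115 (66.3 and 48.7). The strongest value was 3.22 times the next. Of regions not kept, the highest, 522762 to 523151, had 71.1 with a q-value of 0.0252 in the pooled list.

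The gene of the corepressor sbb (FBgn0285917, minus strand of 2R, 18278198 to 18357296) is the longest of the 7 at 79.099 kb. Its strongest region, 18337056 to 18337298 (243 bp), had its summit at 18337179 and a value of 464. The replicates differed here: the value was 161 in replicate 3 (rank 64) and 307 in replicate 4 (rank 11), or 2.71 and 4.65 times the median of the other intronic peaks. The summit lies deep in the gene, 20117 bp downstream of the first start and 48418 bp upstream of the next. It is in intron 1 of 4 transcripts and intron 2 of sbb-RG, before the start codon, 18321 bp from the 5′ splice site of an intron of 49364 or 65649 bp.

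Around that summit sbb held a group of thresholded regions, with 4 of its 5 others within 5.503 kb. The nearest, 18338414 to 18338514, had 192 (replicate 3, 82.8 and replicate 4, 108) at a distance of 1321 bp. The region 18335083 to 18335472 had 179 (101 and 81.2) at 1901 bp. At 18333197 to 18333586 the value was 98.2 (42.2 and 63.7), and at 18342487 to 18342876 it was 105 (50.8 in both replicates). These 4 lie on both sides of the strongest summit in the same long intron. The fifth, 18302704 to 18303093, lay 34.28 kb away with 137 (61.4 and 76.8). The strongest value was 2.41 times the next. The highest region not kept, 18344290 to 18344679, had 78.3 with a q-value of 0.0135 in the pooled list.

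In cno, the junction gene (FBgn0259212, minus strand of 3R, 5170004 to 5217456, 47.453 kb), the 229 bp region 5215406 to 5215634 had its summit at 5215529. The value was 516 in the thresholded list, 172 in replicate 3 and 343 in replicate 4, or 2.90 and 5.20 times the median of the other intronic peaks in the replicate lists. Its rank was 46 in replicate 3 and 7 in replicate 4, so its place among the strongest rests more on replicate 4. The summit is 1927 bp downstream of the first start, in intron 1 of 7 of the 8 transcripts, 1404 or 1409 bp from the 5′ splice site and before the start codon. That intron is 13498 or 13503 bp long.

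The only other thresholded region of cno, 5212316 to 5212705, is in the same intron 3018 bp from the strongest summit. It had 148 in the thresholded list, 88.3 in replicate 3 and 21.9 in replicate 4, where the q-value of the matched region was 0.884. A further replicate 4 region there had 61.7, with its summit just beyond the 100 bp allowed for a match. Replicate 4 was the higher at the strongest summit of cno and the lower at this one. The region of highest value not kept, 5209428 to 5209817, had 73.7 with a q-value of 0.0158 in the pooled list. The strongest value was 3.49 times the next.

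The gene of the kinase Lk6 (FBgn0017581, minus strand of 3R, 11750931 to 11764457, 13.527 kb) had nearly equal values in the replicates, 258 in replicate 3 and 257 in replicate 4, and 515 in the thresholded list. The 226 bp region, 11760932 to 11761157, had its summit at 11761031, between the gene's 2 start sites. The summit is 3426 bp downstream of the first start and 952 bp upstream of the second, in intron 1 of Lk6-RA. That intron is 6991 bp long, and the start codon of Lk6-RA lies before it. No other region of the gene was kept, and the highest of the rest, 11753143 to 11753532 in coding sequence, had 44.1 with a q-value of 0.504 in the pooled list.

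The transporter gene CG9663 (FBgn0031516, minus strand of 2L, 3294926 to 3303130, 8.205 kb) has 1 transcript. Its peak, 3302089 to 3302286, was the narrowest of the 7 at 198 bp, with values of 447 in the thresholded list, 204 in replicate 3 and 243 in replicate 4. The summit at 3302196 is 934 bp downstream of the start, in an intron 1 of 1292 bp and before the start codon. A second thresholded region, 3302326 to 3302478, lies in the same intron toward the start site. It had 188 (replicate 3, 99.0 and replicate 4, 92.6), and its summit is only 204 bp from the stronger one. These were the only 2 regions of the gene in the pooled list.

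CG11050 (FBgn0031836, plus strand of 2L, 6611011 to 6617117, 6.107 kb) had the second highest intronic value, 638, with 297 in replicate 3 and 338 in replicate 4. Its summit at 6612716 lies in intron 2 of all 3 transcripts, 1029 bp downstream of the nearest start and after the start codon. The intron is 140 bp long, whereas at each of the other 457 intronic peaks the longest intron holding the summit had at least 172 bp. The 258 bp region, 6612579 to 6612836, covers the whole intron and 118 bp of the exons beside it, so its class as intronic rests on the summit. The 1 other pooled region of the gene, 6611433 to 6611822 at a promoter, had 44.1 with a q-value of 0.501.

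CG32772 (FBgn0052772, plus strand of X, 4909102 to 4915161, 6.06 kb) had 563 in the thresholded list, 302 in replicate 3 and 261 in replicate 4. Set against the median of the other intronic peaks in the same list, it was 5.09 in replicate 3 and 3.96 in replicate 4, and ush and Lk6 were also higher in replicate 3 on that ratio. The 243 bp region, 4910256 to 4910498, had its summit at 4910367, 1265 bp downstream of the first start and 2014 bp upstream of the next. The summit lies in a 1054 bp intron, intron 1 of CG32772-RC and intron 2 of CG32772-RE, after the start codon. No other region of the gene was in the pooled list.

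**Figure D3:**
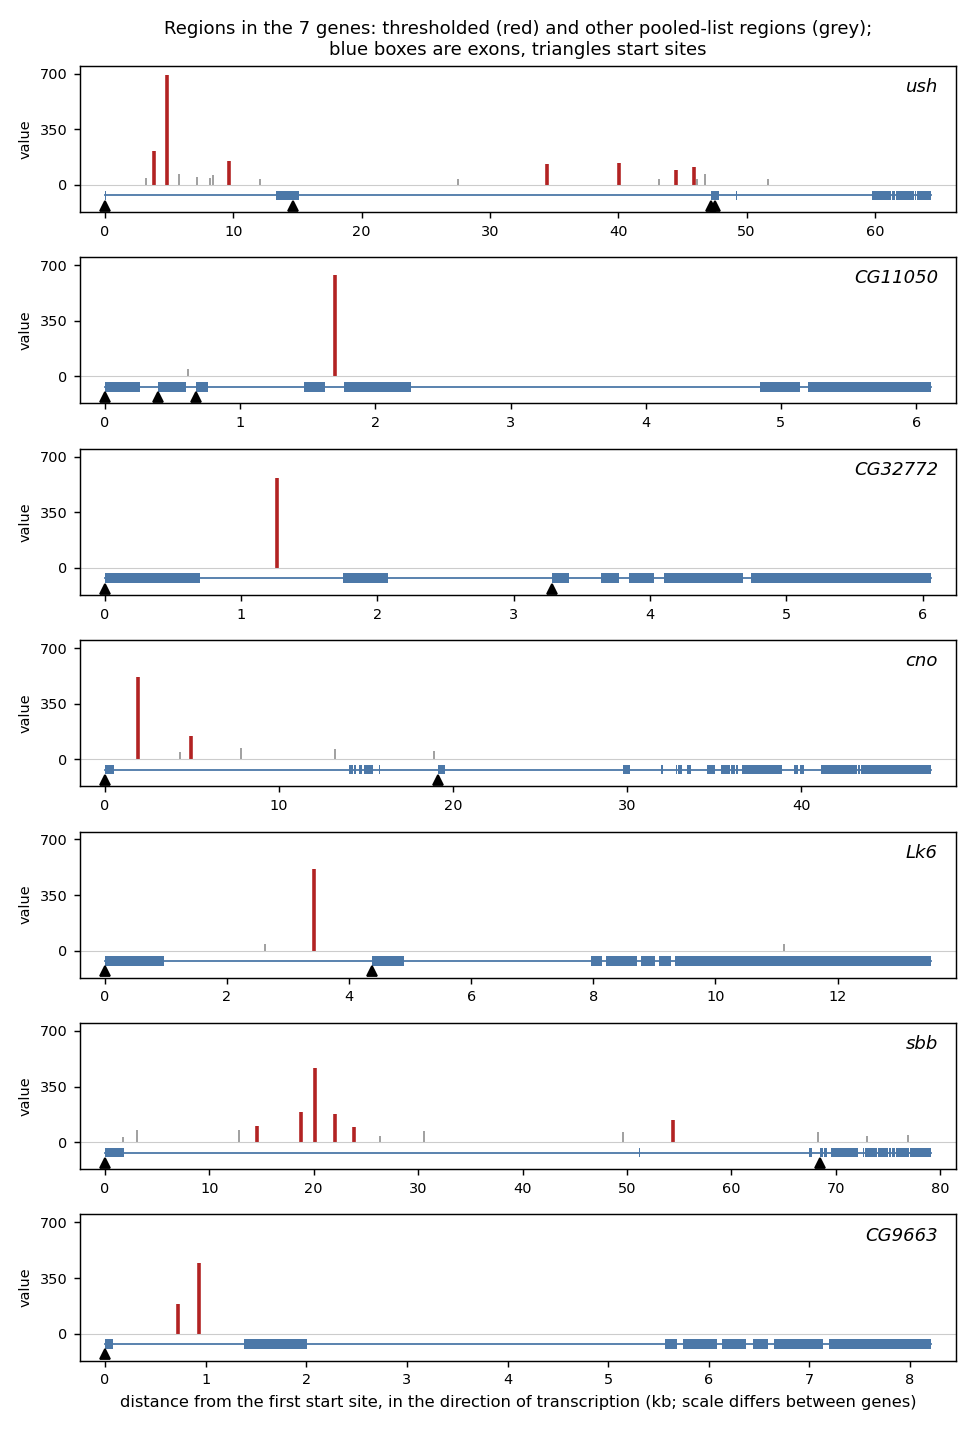
Regions in the 7 genes by distance of the summit from the first start site (kb, in the direction of transcription, scale differing between genes) and value in the pooled list; red lines were kept in the thresholded list, grey lines were not, boxes are exons and triangles are start sites. Each gene has 1 line of 447 or more, and the highest other line is that of 215 in ush.

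Over the 7 gene bodies together, 20 of 47 pooled regions were kept in the thresholded list, where 13.2% of all nuclear pooled regions were kept. Since each gene was chosen for holding such a peak, nothing is read from that share. At a q-value of 0.05 or less there were 27 of 47 in the pooled list, 28 of 53 in replicate 3 and 22 of 66 in replicate 4, beside 25.6%, 23.7% and 12.6% of all nuclear regions in those lists. Besides the strongest peaks, 13 regions were kept, 12 intronic and 1 at a promoter, with values of 96.1 to 215 and a median of 137. They were unevenly spread: ush held 6, sbb 5, cno 1 and CG9663 1, and CG11050, CG32772 and Lk6 held none.

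Having more than 1 thresholded region, as 4 of the 7 genes did, was also found in 33.4% of the 353 protein-coding genes with an intronic thresholded summit. Gene length moved with it. Genes of that kind with at least 2 such summits had a median length of 34.8 kb and those with 1 had 15.6 kb, and the 3 longest of the 7 genes, sbb, ush and cno, were among the 4. The part of gene length in these counts was not tested.

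By position, 6 of the 7 summits lay 501 to 2000 bp from a start site of some gene, against 210 of the other 457 (45.95%), with sbb the exception at 20117 bp. The median distance was 1265 bp for the 7 and 2313 bp for the others. Of the peaks nearest in value outside the 7, that of Trl lay 1532 bp from the nearest start site, within the same range. That of Lrch lay 5247 bp away. The summit lay in the first intron of at least 1 transcript in 6 of 7, all but CG11050, against 75.71% of the others. It lay downstream of the nearest start in 5 of 7, all but ush and Lk6, against 65.65% of the others. The last 2 shares are near those of the other intronic peaks. With start sites taken as promoters out to 1000 bp in place of 500 bp, the summits of Lk6 and CG9663 would be classed as promoter summits and 5 intronic ones would remain.

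**Figure D4:**
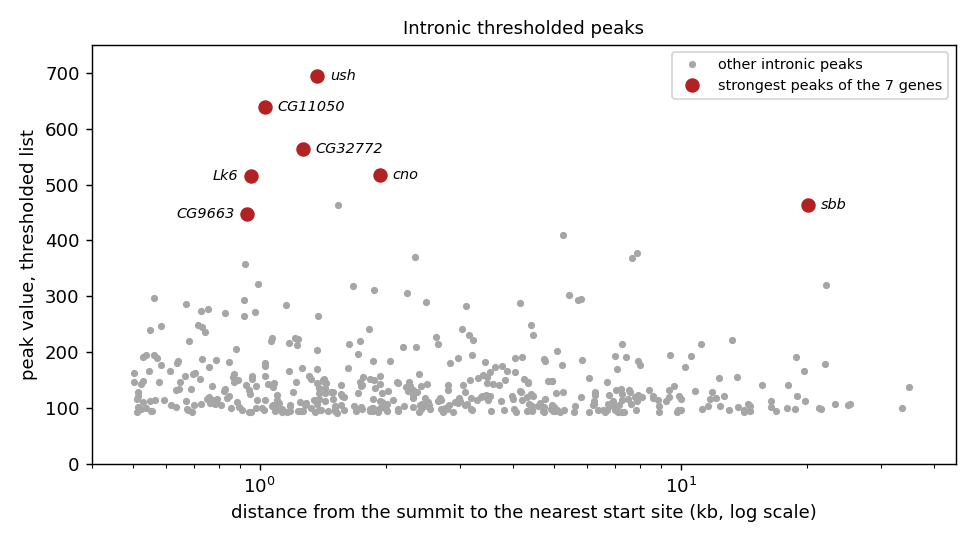
Value in the thresholded list against the distance from the summit to the nearest annotated start site (kb, log scale) for the 464 intronic peaks; red points are the 7 genes. All of them but sbb (20117 bp) lie between 934 and 1927 bp from a start site.

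The regions were narrow. All 7 were 198 to 282 bp wide, below the commonest width of 390 bp, which 23 of the other 457 (5.03%) were also below. Those others were mostly of high value too: 20 of the 42 intronic peaks ranked 9 to 50 were narrower than 390 bp, and so were 2 of 100 ranked 51 to 150 and none ranked lower. Width moved with the value that chose the peaks, so it is no separate feature of them.

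Base composition was not used to choose the peaks. The 201 bp windows held 48.8% (cno) to 67.2% (Lk6) A+T with a median of 59.2%, and the other intronic windows had a median of 64.7% (quartiles 59.7 and 68.7). The windows of ush (58.7%), CG32772 (60.2%), sbb (54.7%) and CG9663 (59.2%) were also below that median, while CG11050 (66.2%) and Lk6 lay above it. Of the 457 other windows, 0.656% had less A+T than that of cno. The window of Trl, whose peak was higher than that of CG9663, had 75.1%, above all 7 and above the upper quartile of the others.

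The difference lay in the flanks and not at the summit. In the central 51 bp the 7 had a median of 68.6% (64.7 to 80.4), equal to that of the others. From 61 to 200 bp on either side the 7 had a median of 50.7% (45.7 to 54.6) and the others 57.9% (quartiles 53.9 and 61.4), and 6 of the 7 were below the lower quartile. In all 7 the centre was richer in A+T than the flanks, as it was in 81.8% of the others. The difference was 12.0 to 34.7 percentage points in the 7, with a median of 18.6. In the others its median was 10.8 (quartiles 2.94 and 16.8). The lowest flank share (45.7%) and the largest difference (34.7) were those of CG11050. Its intron of 140 bp ends 76 and 65 bp from the summit, so its flanks are mostly exon. The flanks of ush and cno had 46.1%. Over 1001 bp the medians of the 7 and of the others were 56.5% and 58.4%. The 51 bp and flank measures were added after the profile had been seen.

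Low flanking A+T was shared in part with the peaks next in value. The intronic peaks ranked 9 to 50 had a flank median of 53.2%, and those ranked 51 to 150, 151 to 300 and 301 to 464 had 58.6%, 58.4% and 57.9%. Over all 464 the Spearman correlation of value with flank A+T was weak, -0.14, and with the 201 bp window it was 0.001, both across peaks that share the same libraries. Whether the composition of the flanks affects the caller's values was not tested.

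**Figure D5:**
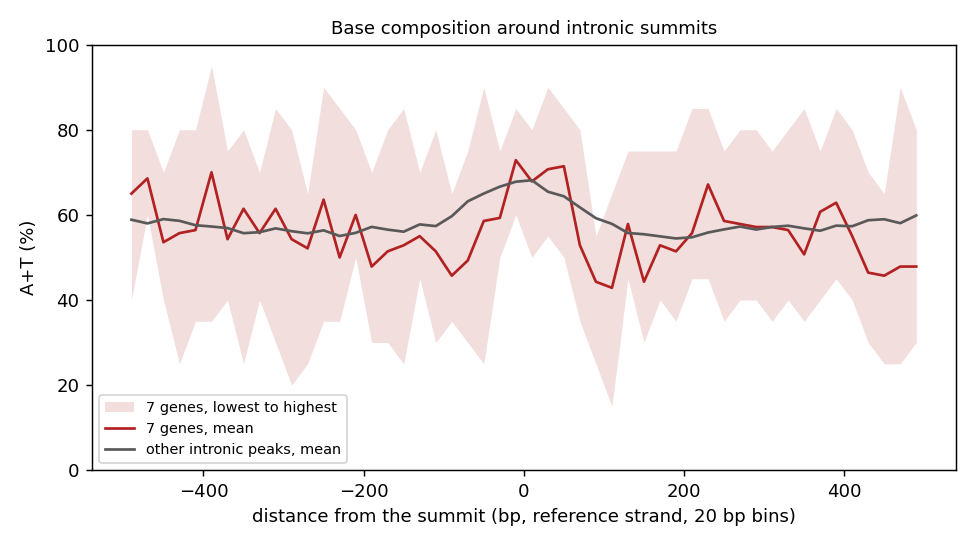
A+T (%) in 20 bp bins against distance from the summit (bp, reference strand); the red line is the mean of the 7 genes, the shaded band their lowest to highest, and the grey line the mean of the 457 other intronic peaks. The red line is highest at -10 bp (72.9%) and the grey line at 10 bp (68.1%). At 30 and 50 bp the red line is above the grey line (70.7 and 71.4% against 65.4 and 64.4%). At -30 and -50 bp it is below (59.3 and 58.6% against 66.6 and 65.0%). Between 60 and 200 bp on either side the red line is below the grey line in 13 of the 14 bins. The exception is the bin centred at 130 bp (57.9 and 55.7%).

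No motif was shared by all 7 windows. GAGAG, the core of the GAGA factor site, was in the windows of cno (1 match) and Lk6 (3 matches, of which 2 overlap), and in 26.91% of the other intronic windows. GATAA, the core of GATA factor sites, was in those of ush, CG11050 and cno, 15 to 87 bp from the summit, and in 44.42% of the others. GCCAT, the core of the Pleiohomeotic site, was in cno and sbb, and in 24.73% of the others. TATAAA, the TATA box, was in ush and CG32772, and in 36.32% of the others. With at most 3 of 7, these motifs were about as frequent in the 7 windows as in the rest.

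In CG32772 the TATAAA match starts 1 bp after the summit, the closest of any match. The other 4 motifs searched, CACGTG (E-box), CAGGTAG (Zelda site), TATCGATA (DREF site) and CAGGTG, were in none of the 7 windows, and in 1.31%, 1.75%, 0.22% and 6.35% of the other intronic windows. Both strands were read. CAGGTAG and CAGGTG share their first letters, and GATAA can overlap the end of TATCGATA. The window of CG9663 held none of the 8 motifs. Of all strings of 6 letters, the one in most windows was AATAAC, in 6 of 7 and in 20.57% of the others; it was picked as the highest of 2080 such strings, so nothing is read from it. The longest identical run between any of the 21 pairs of windows was 11 bp, in Lk6 and ush.

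Genes related to named members by partnership, process or gene family were also searched for peaks, from lists of 56 genes in all. A thresholded summit in the gene body or within 500 bp was found for 11 of 56 (19.64%), against 8.39% of the 13945 protein-coding genes. The listed genes are longer, with a median of 8.98 kb against 2.17 kb for all genes. Length moved with having a summit, since the 1170 genes that had one had a median of 5.79 kb, and its part in the difference was not tested. The lists were also chosen with earlier results of these data known, so the share is given as a description.

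Of the 10 GATA factors and partners of ush, and of the 11 translation and MAP kinase genes beside Lk6, none had a thresholded summit. Of all protein-coding genes, the background for each list, 8.39% had one, so in lists this short nothing is read from the absence. These counts also depend on the peak list. With pooled regions of q 0.05 or less they were 3 of 10 and 3 of 11, beside 14.33% of all genes. Without replicate 3 they were 1 and 2 (10.53% of all genes), and without replicate 4 they were 3 and 6 (17.57%). Of 9 nuclear regulators beside sbb, 4 had a thresholded summit. Gug, which encodes the corepressor Atrophin, held an intronic peak of 368 (replicate 3, 193 and replicate 4, 170) and one of 102. The promoter of gro, the corepressor Groucho, had 202 (109 and 90.4), the promoter of lola 112, and an intron of psq 115.

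Of 13 adherens junction and Rap1 genes beside cno, 4 had a summit: baz, the polarity protein Bazooka, with 238 in an exon (115 and 120), the promoter of sdk with 145, an intron of pyd, the fly ZO-1, with 121, and the promoter of Vinc, vinculin, with 96.4. Of 14 White family transporters beside CG9663, 3 had one. E23 had 273 at its promoter (160 and 110) and 108 in an intron, CG17646 had 160 at its promoter, with 76.2 in replicate 4 and no summit of replicate 3 within 100 bp, and CG31121 had 143 in an intron. None of these peaks reached the lowest value of the 7 genes, 447. For the intronic ones this followed from the choice of the 7 by value, since only the peak of Trl among other intronic peaks was higher.

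At the gene of TFAM itself no thresholded region was found. The pooled list held 2 regions there, the higher with 71.4, below every thresholded intronic peak.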

How the data were processed

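Chromatin immunoprecipitation was sequenced from 2 biological replicates of TFAM-GFP embryos. The deposited lists are peak calls on dm6. There was 1 for each replicate (13396 regions in replicate 3 and 13455 in replicate 4). Another was made on both replicates together (9598). The thresholded list (1290) was kept by the irreproducible discovery rate. Per the text deposited with the samples, each call used a control alignment. The aligner and the peak caller were not given in the sources used here. The value of a region is the authors' score (the seventh column), open-ended and made against the control. The authors' q-value was deposited as −log10 of it, and the summit as an offset from the region start.

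Summits were placed on the Ensembl 115 annotation (BDGP6.54), with transposable element insertions left out. A summit within 500 bp of a start site was a promoter summit; the rest were assigned to coding sequence, other exons, introns or intergenic sequence. Positions are counted from 1. Replicate summits were matched within 100 bp, and sequence came from RefSeq's Release 6 assembly. Python 3.11.15, pandas 2.3.3 and numpy 2.4.6 were used, and matplotlib 3.10.9 drew the figures. The steps were tested on simulated data. No statistical test was made: there was 1 group, and the members were chosen by value. Depth is unknown, so no counting interval is given. Peak lists on dm3 were not used.

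The members and the lists of related genes were chosen with earlier results of these data known. Named were all 7 genes with every thresholded region in their bodies and the highest region not kept, the intronic peaks next below the lowest member and above it without being members, and each related gene with a thresholded summit. In the related lists, Tor is annotated as mTor. The alternatives concerned promoter distance, matching, window length, the list used and leaving out each replicate.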

Additional observations from a re-analysis of the deposited data

How the results depend on the processing

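Counts within 1.5 times the reported one, and values within 1 SD of the 2 replicates, were taken as unmoved, which is a wide margin where the replicates differ. By that rule 6 of 34 alternative values for the main results moved. So did 6 of 21 for single peaks, 6 of 32 for single motifs and 8 of 20 for single lists of related genes. The rule did not look for reversals of direction. Within that margin, intronic summits went from 7 to 5 with a promoter distance of 1000 bp, and regions in the gene bodies from 20 to 28 without replicate 4. The median of the 7 peaks relative to the other intronic peaks was 4.24, and 4.36 to 4.65 with 1 replicate left out. The A+T difference of -5.47 percentage points was 0.0 with 50 bp on either side of the summit, -5.65 with 150 bp and -5.97 to -4.98 with the summits of 1 replicate. The 9 gene and motif pairs became 4 with 50 bp and 14 with 150 bp, since shorter and longer windows were read. Related genes with a summit numbered 11, and 19 with pooled regions of q 0.05 or less (14.33% of all genes then had one). Their number was 16 without replicate 3 (10.53%) and 27 without replicate 4 (17.57%). Those lists were cut at a q-value of 0.05 within a single replicate. They held 1696 and 3174 nuclear regions, beside 1268 in the thresholded list. The part of list size in these counts was not tested. Adding Trl, chosen after seeing the data, gave a median of 4.24 and an A+T difference of -4.98.

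For single genes, cno was 2.90 times the intronic median without replicate 4 and 5.20 times without replicate 3, and sbb 2.71 and 4.65 times. No paired analysis was possible because there is 1 group. With no read counts, counting error cannot be stated, and the spread rests on 2 replicates.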
